A study of Mus musculus with 2 samples.

Results

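Small nucleolar RNAs (snoRNAs) were examined in nuclear RNA of macrophages, and 17 of 1507 annotated snoRNA genes met the detection rule, out of 55536 genes in the deposited tables. A gene was selected on its measured values. Every transcript of it had to be annotated as snoRNA, and it had to hold at least 20 expected counts, the reads that the quantification assigned to the gene, in each of 2 libraries. By symbol the 17 were 2 Snord genes, 3 Snora genes, 5 Rnu3 genes, Scarna10 and 6 genes with provisional Gm symbols. The counts chose the members, so their levels and the differences between the libraries are given as description, with no test.

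Both libraries were made from ribosomal RNA-depleted total RNA of bone marrow-derived macrophages of the mouse strain C57BL/6J, primary cells treated for 50 minutes with lipid A at 100 ng/ml. Lipid A, the part of bacterial lipopolysaccharide that sits in the membrane, is sensed by macrophages. The description of both samples names the nucleoplasmic fraction, whereas their source label reads nuclear fraction and their cell part label reads nucleus. The labels number the samples as biological replicates 1 and 2 and give them the same donor identifier, the fragment size range 250 to 400 with no unit, and an RNA input of 500 ng for replicate 1 and 1 µg for replicate 2. There was 1 group, no untreated library was analysed here, and sex and age were not collected. The levels below thus describe treated cells and show no effect of the treatment.

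Depth by expected counts was 10395300 for replicate 1 and 20515408 for replicate 2. A count of 0 allowed up to 0.290 counts per 1000000 (CPM) in replicate 1 and 0.146 CPM in replicate 2, taking 3 counts as the limit. All 9 macrophage markers listed were at 1 transcript per 1000000 (TPM) or more in both libraries. Among 14 markers of T cells, B cells, neutrophils, erythroid and stromal cells only Ltf and S100a8 reached 1 TPM in both, with at most 1.78 TPM. A second deposited quantification, made from the reads, gave more to some of them. Its estimated counts were highest for Cd3d (447 and 263, against 0 and 3 expected counts). Ms4a1 had 82.2 and 110 (against 0 and 5) and Col1a1 57.0 and 63.1 (against 1 and 5). The lincRNA Malat1, a nuclear RNA, had 32582 and 10080 TPM in replicates 1 and 2. Its expected counts were 1146416 and 1853492, and its log2 ratio of CPM, centred as described below, was -0.18.

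snoRNAs are short noncoding RNAs that work with proteins in the nucleolus, and most of them are cut out of introns of other genes in mammals. The box C/D kind carries a C box near its 5′ end and a D box near its 3′ end and directs 2′-O-methylation of ribosomal RNA, whereas the box H/ACA kind ends in an ACA box and directs pseudouridylation. A few, among them U3 (Rnu3 genes) and Snora73, act in the cleavage of the ribosomal RNA precursor, and small Cajal body RNAs such as Scarna10 guide the modification of spliceosomal RNAs.

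The sequences of the members on which the results turn are those of the GENCODE M21 transcripts on mm10 (GRCm38), written 5′ to 3′ as DNA. The Snord members are shown first as the box C/D examples. Capitals mark the C box, TGATGA starting in the first 30 bases, and the D box, CTGA reaching into the last 15 bases. Snord15a lay at chr7:99482785-99482932 (minus strand) and Snord17 at chr2:144265979-144266216 (minus strand).
Snord15a: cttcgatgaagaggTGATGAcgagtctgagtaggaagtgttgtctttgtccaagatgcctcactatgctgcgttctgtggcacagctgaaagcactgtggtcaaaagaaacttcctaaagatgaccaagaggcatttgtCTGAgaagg
Snord17: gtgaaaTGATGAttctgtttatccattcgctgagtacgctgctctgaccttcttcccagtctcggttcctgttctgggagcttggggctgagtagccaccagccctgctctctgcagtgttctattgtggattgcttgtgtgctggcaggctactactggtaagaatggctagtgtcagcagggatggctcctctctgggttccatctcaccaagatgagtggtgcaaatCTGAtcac

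Gm22988, Gm25776 and Gm26447 are shown because they had the highest TPM or the largest differences between the libraries, a choice made after the values were seen. Capitals mark an ACA with at most 3 bases after it. They lay at chr11:69669635-69669778 (minus strand), chr12:91573430-91573572 (minus strand) and chr16:23111301-23111429 (plus strand).
Gm22988: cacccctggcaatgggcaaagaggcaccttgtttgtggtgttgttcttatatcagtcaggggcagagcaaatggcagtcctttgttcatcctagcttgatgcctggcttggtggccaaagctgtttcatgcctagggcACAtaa
Gm25776: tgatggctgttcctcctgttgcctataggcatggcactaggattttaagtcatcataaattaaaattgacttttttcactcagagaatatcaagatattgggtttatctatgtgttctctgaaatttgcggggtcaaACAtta
Gm26447: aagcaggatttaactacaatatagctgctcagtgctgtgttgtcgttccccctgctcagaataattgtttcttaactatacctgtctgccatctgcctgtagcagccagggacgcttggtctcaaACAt

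Snora73a (chr4:132352775-132352979, minus strand) and Snora73b (chr4:132352322-132352526, minus strand) are shown because reads have to be divided between near-identical copies. They differed at 7 of 205 positions (96.6% identity), which capitals mark. Counted from 1 at the 5′ end, with the base of Snora73a first, these were G3A, G54A, A111G, T164C, G203A, T204A and T205A.
Snora73a: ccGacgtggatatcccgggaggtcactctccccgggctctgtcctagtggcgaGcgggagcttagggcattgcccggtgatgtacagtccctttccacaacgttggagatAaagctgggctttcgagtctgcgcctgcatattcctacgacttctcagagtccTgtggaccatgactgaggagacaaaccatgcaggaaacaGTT
Snora73b: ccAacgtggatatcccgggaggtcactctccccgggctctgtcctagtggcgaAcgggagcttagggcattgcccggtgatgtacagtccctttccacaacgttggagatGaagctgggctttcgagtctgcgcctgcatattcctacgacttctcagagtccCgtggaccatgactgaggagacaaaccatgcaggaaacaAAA

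U3 is shown because its reads were divided among the 10 gene models of the Rnu3 symbols. A further 8 models under Gm symbols were near-identical to Rnu3b, and none of them had an expected count in either library. Each of the 5 Rnu3 loci carries 2 gene identifiers, and the shorter model lacks only the last base of the longer one, which is in capitals. The longer Rnu3a model lay at chr10:40258467-40258680 (plus strand) and the longer Rnu3b1 model at chr11:87443237-87443452 (plus strand). The 4 longer Rnu3b models had the same 216 bases, and Rnu3a aligned to them over 214 columns with 86.0% identity.
Rnu3a: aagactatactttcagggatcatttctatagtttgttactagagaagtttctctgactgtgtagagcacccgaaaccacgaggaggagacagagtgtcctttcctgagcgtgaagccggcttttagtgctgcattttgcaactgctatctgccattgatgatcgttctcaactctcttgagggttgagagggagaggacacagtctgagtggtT
Rnu3b1: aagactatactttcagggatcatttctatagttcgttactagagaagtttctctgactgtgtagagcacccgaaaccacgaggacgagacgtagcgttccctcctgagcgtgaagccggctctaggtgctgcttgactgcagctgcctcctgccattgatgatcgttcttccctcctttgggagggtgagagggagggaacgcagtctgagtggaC

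Motifs were found in the members at about the same share as in all snoRNA genes. Both the C box and the D box were found in 4 of 17 members, namely Snord15a, Snord17, Scarna10 and Gm23547 (23.5%, against 20.5% of all 1507 snoRNA genes). The terminal ACA was found in 8 of 17 (47.1%, against 45.8% of all), namely Gm22988, Gm24119, Gm25776, Gm26447, Snora73a, Snora73b, Snora74a and Gm23547. In Gm23547 the ACA overlaps the CTGA, so that 1 stretch matches both. ANANNA, the letters of the H box, was found in the middle of 3 equal segments of 14 members (82.4%) and of 79.6% of all snoRNA genes, so it separates little. All motifs were searched on the transcribed strand only. Gm23262 and the 5 U3 members matched neither the C and D pair nor the ACA in these windows. A match describes letters and not a proven box.

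Together the members held 0.0259% of expected counts in replicate 1 (exact Clopper-Pearson 95% interval 0.0249 to 0.0269%) and 0.0920% in replicate 2 (0.0907 to 0.0933%), a mean of 0.0589 ± 0.0467% (SD, n = 2). In bulk RNA, fewer cells with an RNA and less of it per cell cannot be told apart. The intervals cover counting error only, because PCR copies of a molecule cannot be recognised. Of all counts on snoRNA genes, the members held 88.1% in replicate 1 and 88.3% in replicate 2. In TPM, which divides counts by the length left for a fragment to start in (the effective length), the members held 2.45% and 3.22%, a mean of 2.84 ± 0.546% (SD, n = 2).

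**Figure D1:**
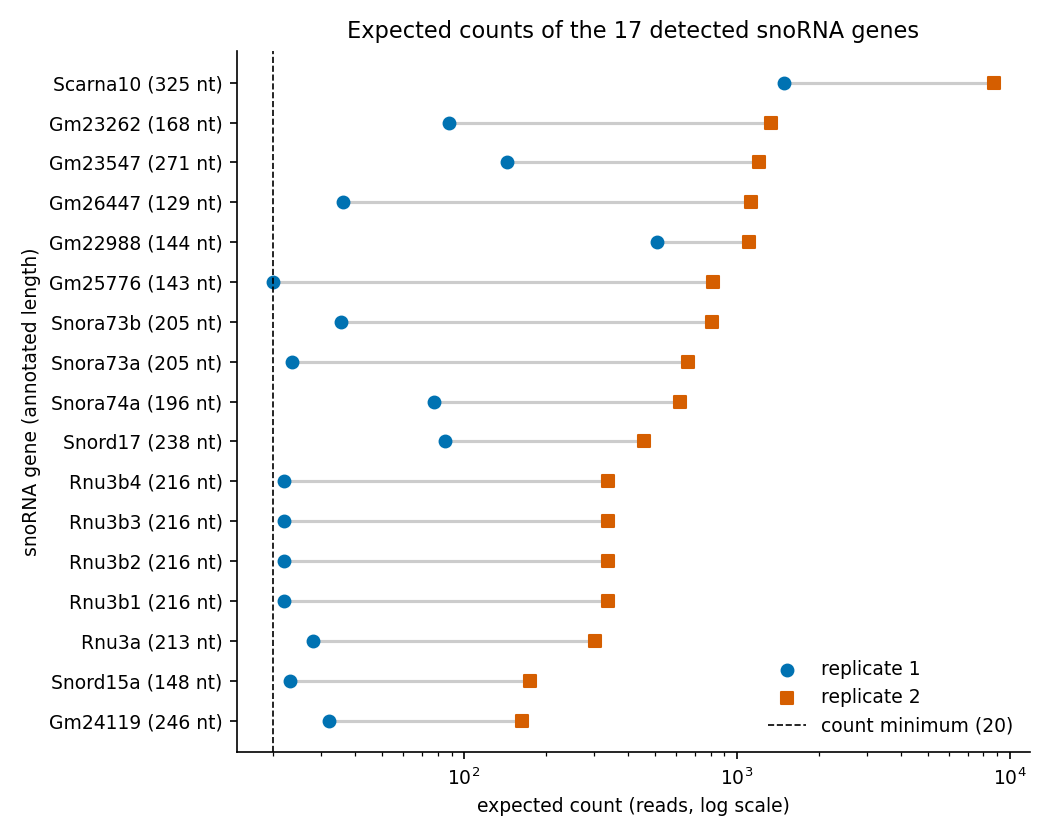
Expected counts of the 17 detected snoRNA genes on a log scale, circles for replicate 1 and squares for replicate 2, with the annotated length beside each name and the minimum of 20 counts as a dashed line. Scarna10 was highest in both libraries, 11 members had under 40 counts in replicate 1, and every member had more counts in replicate 2.

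Scarna10 (ENSMUSG00000089617.1, chr6:125186359-125186683, minus strand), a Cajal body RNA that guides the modification of the U5 spliceosomal RNA, led the members by count. It had 1488 expected counts in replicate 1 and 8722 in replicate 2, or 144 and 426 CPM. It made up 55.6% of the members' counts in replicate 1 and 46.3% in replicate 2. On the TPM scale it stood at 1219 and 1818 (1519 ± 424 TPM, SD, n = 2), with rank 2 among the members in replicate 1 and rank 5 in replicate 2. The annotation gives Scarna10 the class snoRNA and places an exon of the gene Gm28967 over it, which had 0 counts in both libraries. Of the 51 genes in the separate class scaRNA, 5 had at least 20 counts in both libraries, and the highest, Gm22009, had 10924 and 26439 counts.

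The Snord members were Snord15a and Snord17. Snord17 (238 nt), which guides methylation of large-subunit ribosomal RNA, had 85 and 457 expected counts in replicates 1 and 2. Snord15a (148 nt), a methylation guide for the same subunit that lies in the ribosomal protein gene Rps3, had 23 and 174. By TPM the order was reversed, with Snord15a at 694 and 695 TPM and Snord17 at 195 and 213 TPM. The effective length of Snord15a was 2.95 and 7.39 nt and that of Snord17 38.8 and 63.3 nt, so a count of Snord15a weighed far more in TPM.

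The Snora members were Snora73a, Snora73b and Snora74a. Snora73b had 35.35 and 813 expected counts in the 2 libraries, and Snora73a had 23.45 and 664. In both libraries Snora73b was the higher of the pair. The counts of both were not whole, so some reads were divided with other gene models. Whether these were each other, their host, another enclosing gene or a gene on the opposite strand cannot be read from the counts. Both lie in Snhg3, a long noncoding gene known as their host, and Rcc1 (29 and 100 counts) also encloses both on the same strand. The lincRNA gene Gm17300 covers them on the opposite strand, with 28.45 and 160 counts of its own. The strand setting is not given in the sources used here, so reads of that gene cannot be told apart from theirs. Snora74a (196 nt), a pseudouridylation guide for large-subunit ribosomal RNA, had 77.9 and 620 expected counts. The gene Gm28285 (0 and 1.32 counts) also encloses it, and an exon of Gm49347 (0 counts in both) lies over it. Of the 3 it had the highest mean level, 495 ± 104 TPM, against 391 ± 335 TPM for Snora73b and 307 ± 290 TPM for Snora73a (SD, n = 2). The SDs hold the difference between the libraries and do not measure the difference between genes. By library, Snora74a had 422 and 569 TPM, Snora73b 154 and 627 TPM, and Snora73a 102 and 512 TPM. Snora73b was thus above Snora73a in both libraries, whereas Snora74a and Snora73b changed order. The median log2 TPM of the 3 Snora members lay 0.28 below that of the 2 Snord members (a difference of -0.28), and this sign turned with the scale: on CPM the difference was 0.60.

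Among the Gm members, Gm22988 in the translation initiation gene Eif4a1 had rank 2 among all members by count in replicate 1, with 510 counts, and rank 5 in replicate 2, with 1111. Its effective length of 2.38 nt in replicate 1 turned these counts into 19102 TPM, or 78.1% of the members' TPM, and an effective length of 6.07 nt in replicate 2 gave 5397 TPM, or 16.8%. Gm26447 in Eif4a2 showed the opposite: 36.0 counts in replicate 1 stood with an effective length of 0 and a TPM listed at 0, whereas 1129 counts in replicate 2, over 2.35 nt, became 14195 TPM, or 44.1% of the members' TPM. Without these 2 genes the members' share of TPM was 0.900% instead of 2.84%. Gm23262 (168 nt, in the initiation factor gene Eif4g2) had 88.4 and 1336.5 counts. Gm23547 (271 nt, in the prohibitin gene Phb2) had 143 and 1201 counts. Gm25776 (143 nt, in Gtf2a1, which encodes a subunit of the general transcription factor TFIIA) had exactly 20 counts in replicate 1, with a Poisson 95% interval of 12.2 to 30.9 for counting error, and 816 in replicate 2. Gm24119 (246 nt, in the mitochondrial phosphate carrier gene Slc25a3) had 32 and 163 counts and was the lowest member in replicate 2.

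Near-identical annotated copies, to which reads could have been assigned, were found for 2 of the 6 Gm members. Gm22988 had 10 copies with at least 90% identity and coverage, of which 3 were counted in both libraries. Gm25291 had 17 and 33 expected counts, Gm25117 8 and 44, and Gm24727 5 and 28, all far below Gm22988. Gm25776 had 1 such copy, Gm25848, with 3 and 80 counts. No near-identical copy was found for Gm23262, Gm23547, Gm24119, Gm26447, Scarna10, Snora74a, Snord15a or Snord17.

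U3, which is required for the processing of small-subunit ribosomal RNA, gave 5 of the 17 members, 1 at each locus, beside another model at each locus that was no member. The 4 longer Rnu3b models each had 22.0 and 337 expected counts, the same value because their sequences are identical. The shorter Rnu3b models each held 62.0 counts in replicate 1 and 0 in replicate 2, and they were the only 4 snoRNA genes that passed the minimum in replicate 1 alone. Of the Rnu3a models, the shorter had 28 and 302 counts and the longer 0 and 158. The deposited standard deviation of the read assignment was 24.0 to 34.0 counts for the longer Rnu3b models in replicate 1, above their count, and 152 to 227 in replicate 2. Values of single U3 models are therefore uncertain, and the sum is given beside them. All 10 models together held 364 counts in replicate 1 and 1807 in replicate 2, or 35.2 and 88.2 CPM. The Rnu3b models supplied 336 and 1347 of these and the Rnu3a models 28 and 460.

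**Figure D2:**
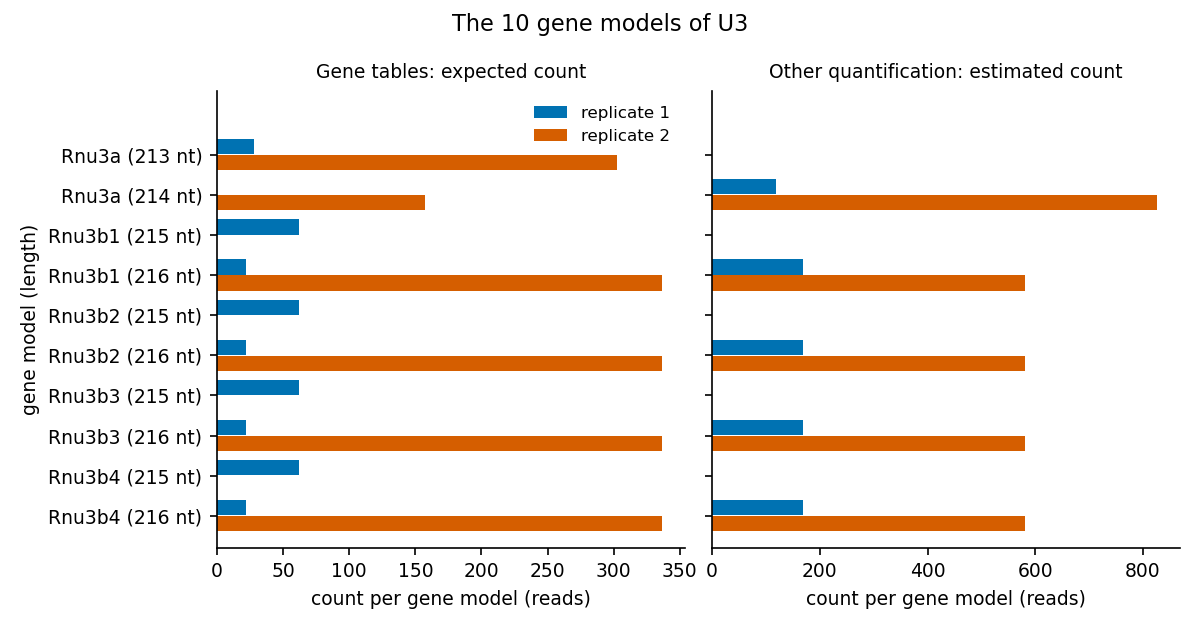
Counts of the 10 U3 gene models in the gene tables (left, expected counts) and in the other deposited quantification (right, estimated counts), blue bars for replicate 1 and orange bars for replicate 2. In the gene tables the 215 nt Rnu3b models hold 62.0 counts in replicate 1 and 0 in replicate 2, whereas the other quantification places every Rnu3b read on the 216 nt models.

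The libraries were compared as the log2 ratio of CPM, replicate 2 over replicate 1, after centring on the median of all 11058 genes at 20 counts or more in both, which was -0.11 before centring. Members stood higher in replicate 2: 16 of 17 were at least 2-fold higher there, none was at least 2-fold higher in replicate 1, and their median ratio was 3.04. As 5 of these are U3 models with shared reads, the same was computed with U3 summed as 1 gene, which gave 12 of 13 and a median of 2.12. Over all genes tested, 3.06% were at least 2-fold higher in replicate 2 and 2.11% in replicate 1, with a median of 0. With 1 library on a side the difference has no replicate check, and the rule used the same counts.

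Gm25776 had the largest ratio, 4.48, from 1.93 CPM in replicate 1 and 39.8 CPM in replicate 2. Gm26447 followed at 4.10 (3.48 and 55.1 CPM), then Snora73a at 3.95 (2.27 and 32.4 CPM) and Snora73b at 3.65 (3.42 and 39.7 CPM). All 4 had under 40 counts in replicate 1. The 4 longer Rnu3b models were at 3.06 each and Gm23262 at 3.04. With all U3 models summed, U3 was at 1.44, a fold of 2.71 and below each of its single members. Summed by gene, the Rnu3b models were at 1.13, below their members. The Rnu3a models summed were at 3.16, above the 2.56 of the Rnu3a member.

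At the low end, Gm22988 had a ratio of 0.25 (49.3 and 54.2 CPM) and was the only member within 2-fold. Gm24119 followed at 1.47, Snord17 at 1.55, Scarna10 at 1.68, Snord15a at 2.04, Snora74a at 2.12 and Gm23547 at 2.19. Scarna10, with the most counts behind it, thus differed 3.20-fold between the libraries. On the TPM scale, centred in the same way, Gm22988 turned to -1.11 and the median of the 16 members with a value was 1.78. On that scale 12 of 16 were at least 2-fold higher in replicate 2, and Snord15a (0.71), Gm24119 (0.80) and Snord17 (0.84) were not. The share of all genes past 2-fold on the TPM scale is not given here.

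Other short genes also stood higher in replicate 2. The other 48 genes tested within the members' range of 129 to 325 nt had a median ratio of 1.19, and 28 of them (58.3%) were at least 2-fold higher in replicate 2 against 3 that were at least 2-fold higher in replicate 1. Among the 10993 longer genes 2.67% were at least 2-fold higher in replicate 2. The fragment length implied by the tables, taken from the length and effective length of the phiX spike-in row, was 221 nt in replicate 1 and 188 nt in replicate 2. Centred on the other short genes, 11 of 17 members were at least 2-fold higher in replicate 2, with a median of 1.86. No share of those short genes past 2-fold is given for that centring. The part of fragment length, RNA input or recovery of short RNA in the difference was not tested, and it cannot be told apart from a difference between the cultures.

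**Figure D3:**
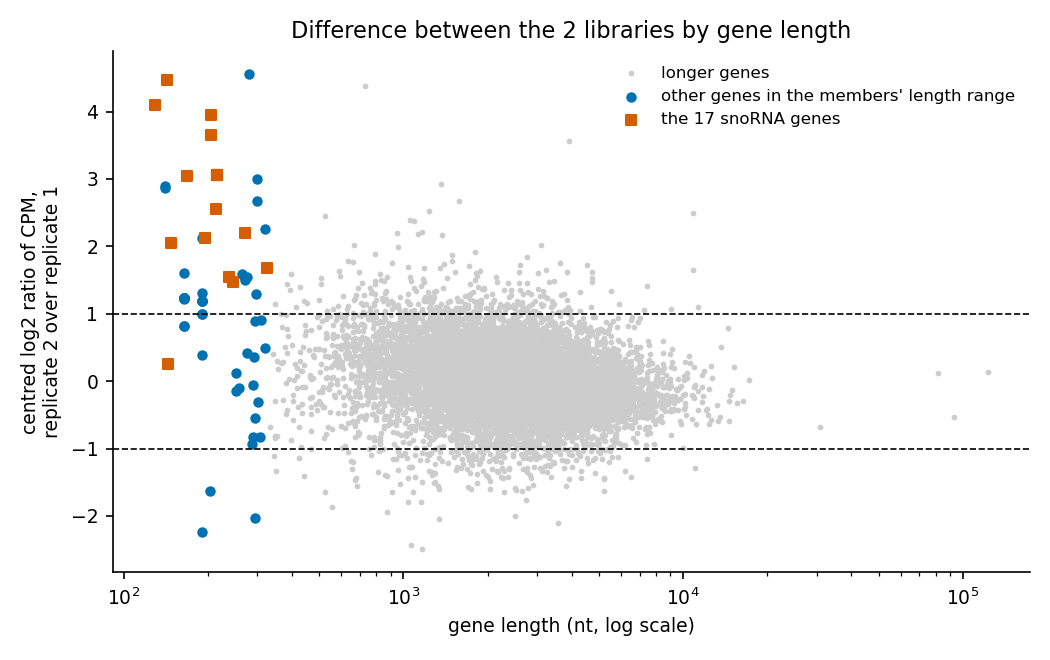
Centred log2 ratio of CPM (replicate 2 over replicate 1) against gene length on a log scale, for all 11058 genes at 20 counts or more in both libraries, with dashed lines at 2-fold. The 17 snoRNA genes (squares) run from 0.25 to 4.48, other genes of the same length range (blue) have a median of 1.19, and longer genes (grey) centre on 0.

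Length also separated detected from undetected snoRNA genes in the gene tables. The members had a median length of 213 nt, against 127 nt for all 1507, 84 nt for the 98 Snord genes and 132 nt for the 42 Snora genes. None of the 458 snoRNA genes below 100 nt had a count in either gene table, and none of the 344 of 100 to 128 nt was a member. Of the 651 genes of 129 to 149 nt, 4 were members (0.614%), of 23 genes of 150 to 199 nt 2 (8.70%), and of 31 genes of 200 to 325 nt 11 (35.5%). The last range holds all 10 Rnu3 models, 5 of them members, and the 8 Gm models near-identical to Rnu3b. The median of 213 nt is the length of the Rnu3a member. Lengths were not recounted with U3 as 1 gene. The gene tables list an effective length of 0 for 939 snoRNA genes in replicate 1, all of 130 nt or less, and for 588 in replicate 2, all of 119 nt or less. Of these, 3 had any count in replicate 1 and 1 in replicate 2. For such short guide RNAs a count of 0 in these tables gives no measure of their presence in the cells.

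**Figure D4:**
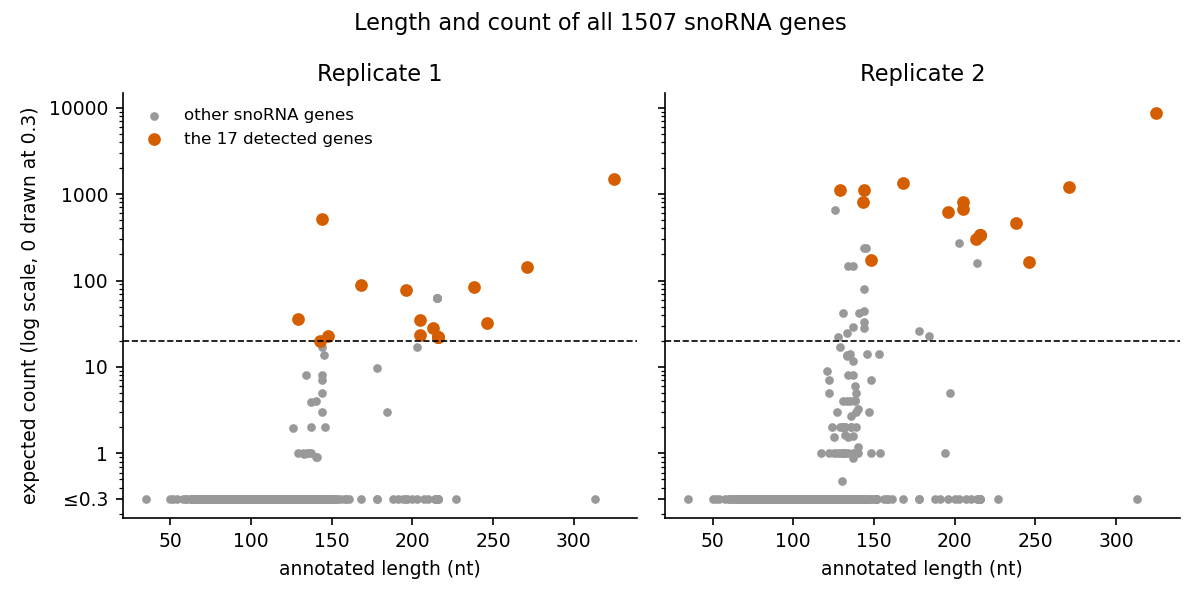
Expected count on a log scale against annotated length for all 1507 snoRNA genes in replicate 1 (left) and replicate 2 (right), with the 17 detected genes in orange, the minimum of 20 counts as a dashed line and genes at 0 drawn at the bottom. No gene below 100 nt has a count, and 11 of the 17 detected genes are 200 nt or longer, 5 of them U3 models.

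Any count at all was found for 44 snoRNA genes in replicate 1 and 93 in replicate 2, and 1409 had none in either. In replicate 1, 21 genes reached 20 counts, and in replicate 2, 35. Just inside the rule stood Gm25776, the longer Rnu3b models at 22.0 and Snord15a at 23, by the lower library. Just outside stood Gm26448 with 17 and 270 counts, Gm25291 with 17 and 33, and Snord15b with 13.9 and 239. Of the 18 genes that passed in replicate 2 alone, Snord22 (126 nt, in Snhg1) was the highest, with 1.96 and 663 counts.

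The positions and counts of host genes were not used by the rule. Every value of a member over its host, and every member ratio beside a host, still holds the member counts that the rule selected on. A host was the shortest gene of another class that encloses the snoRNA on the same strand, and 16 of 17 members lay within 12 such genes, Rnu3a being the exception. By host, 3 members lay in genes of translation initiation (Eif4a1, Eif4a2 and Eif4g2), Snord15a in Rps3, Snora73a and Snora73b in Snhg3, and Snora74a in the noncoding gene AC121821.1. Scarna10 lay in Ncapd2, which encodes a condensin subunit, and Snord17 in the sorting nexin gene Snx5. The 4 Rnu3b loci lay within Tex14, a germ cell gene with 0 counts in replicate 1 and 2 in replicate 2, so no fold over it is given. A host is defined here by position alone, and nothing in these values shows that U3 is made from Tex14. An exon of a noncoding or intron-retaining isoform of the host covered 7 members (Gm22988, Gm23262, Gm23547, Gm26447, Scarna10, Snora73a and Snora74a), and the other 9 lay outside the host's annotated exons.

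Per kilobase of annotated length, Scarna10 stood 7.03 above Ncapd2 on the log2 scale in replicate 1 and 8.41 in replicate 2, the largest excess among the 12 members whose host had more than 3 counts in both libraries. Gm24119 stood furthest below, at -4.17 and -2.24 against Slc25a3. Gm22988 was close to Eif4a1 in both libraries, 0.62 and 0.60 above it. Gm25776 was below Gtf2a1 in replicate 1 (-0.63) and above it in replicate 2 (3.96). Of these 12, 6 were below their host in replicate 1 and 1 in replicate 2, and the median over both libraries was 1.14. Reads of a snoRNA and of the unspliced host intron around it cannot be told apart in these tables, and nuclear RNA holds both.

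Ratios between the libraries are set beside those of the hosts for the 10 hosts at 20 counts or more in both. Gtf2a1 had a centred log2 ratio of -0.28 beside 4.48 for Gm25776, Eif4a2 0.05 beside 4.10 for Gm26447, and Eif4g2 -0.23 beside 3.04 for Gm23262. Ncapd2 was at 0.55 beside 1.68 for Scarna10. Phb2, at 0.71 beside 2.19 for Gm23547, had the highest ratio of these hosts, none of which reached 2-fold. Of all genes tested, 3.06% and 2.11% did so, higher in replicate 2 and in replicate 1. Gm22988 and Eif4a1 had similar ratios, 0.25 and 0.23. Snhg3, with 9.76 and 47.7 counts, was under the minimum in replicate 1 and had a ratio of 1.41 beside 3.95 and 3.65 for Snora73a and Snora73b.

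**Figure D5:**
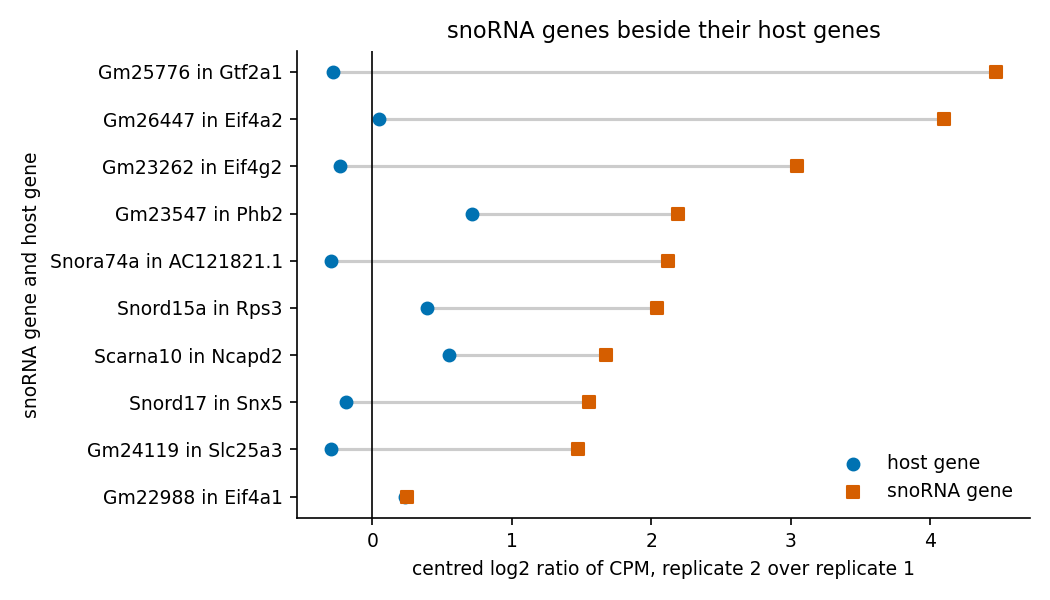
Centred log2 ratio of CPM (replicate 2 over replicate 1) of 10 snoRNA genes (squares) and of their host genes (circles), for hosts with at least 20 counts in both libraries. Hosts lie between -0.30 and 0.71, whereas the snoRNA genes lie between 0.25 and 4.48, and Gm22988 overlies Eif4a1.

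Several hosts carry further snoRNA genes, which were not equally counted. In Eif4a1, beside Gm22988 with 510 and 1111 counts, Gm25835 of the same 144 nt had 7 and 239, and Gm24029 (143 nt) had 0 in both. Eif4a2 holds 5 snoRNA genes, of which only Gm26447 was a member. Snora81 (178 nt) had 9.60 and 26.2 counts there, although it is longer than Gm26447 (129 nt), and Snord2 (69 nt) had 0 in both. In Rps3, Snord15a and Snord15b, box C/D relatives of similar length, changed order, with 23 and 13.9 counts in replicate 1 and 174 and 239 in replicate 2.

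The other deposited quantification, made from the reads rather than from alignments to transcripts, gave more snoRNA genes. At least 20 estimated counts in both libraries were found for 56 snoRNA genes, 16 of them members, and the shortest of the 56 was 71 nt. By length, 3 of the 56 were below 100 nt, 8 were of 100 to 128 nt and 27 of 129 to 149 nt. Another 6 were of 150 to 199 nt and 12 of 200 to 325 nt. The member left out was the shorter Rnu3a model, with 0 estimated counts in both libraries, because the longer model took the reads (119 and 827). The Rnu3b members were at 168 estimated counts each in replicate 1 and 581 in replicate 2. Scarna10 had 2694 and 9197 estimated counts against 1488 and 8722 expected counts. The median ratio of estimated to expected counts was 2.91 for members in replicate 1 and 1.18 in replicate 2, against 1.84 and 1.33 for all genes tested. The members' ratio was thus higher than that of all genes in replicate 1 and lower in replicate 2.

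Of the 40 genes that passed only there, Gm23722 (130 nt) was the highest in replicate 1, with 436 and 443 estimated counts against 0 expected counts in both libraries. Gm24339 (76 nt) had 168 and 699 estimated counts, also against 0 expected counts. In that quantification the members' TPM share was 0.270%, against 2.84% in the gene tables, and its effective lengths for members were 20.1 nt or more. The median ratio of members between the libraries was 1.64 on its counts, and 14 of 16 members were at least 2-fold higher in replicate 2. No share of all genes past 2-fold is given for the estimated counts.

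The list of snoRNAs known for ribosomal RNA processing covered 14 symbols and 19 gene models, of which 7 had at least 20 expected counts in both libraries, the 5 U3 members, Snora73a and Snora73b. Snord118 (U8) and Snord13, which act in this processing, had 0 expected counts in both, as had Snord14a, Snord14c, Snord14d and Snord14e. All of these but Snord118 (135 nt) are 104 nt or shorter, where the gene tables list an effective length of 0. Snord22, also listed, had 1.96 and 663 expected counts. The other quantification gave Snord118 10 and 25 estimated counts and Snord13 3 and 15. It gave Snord14c 0 and 15.1, Snord14d 0 and 22.1, and Snord14a and Snord14e 0 in both libraries. All 19 imprinted genes known from neurons (Snord64, Snord107 and the Snord116 copies) had 0 counts in both libraries and in both quantifications, yet they are all 94 nt or shorter.

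The proteins of snoRNA particles were measured on transcripts of ordinary length. All 4 core proteins of the box C/D particle had at least 20 counts in both libraries. Nop56 was highest, at 19.0 and 13.6 TPM, then Nop58 at 15.6 and 6.54 TPM and Snu13 at 6.35 and 3.67 TPM. Fbl, the methyltransferase of the particle, was at 4.74 and 5.54 TPM. Its centred log2 ratio of CPM was 1.00, and on that scale it was the only core protein gene tested to reach 2-fold. Nop58 was at -0.43 and Dkc1 at -0.55 on it. The TPM pairs printed here are not centred, so their folds differ from these ratios. Among all genes tested, 3.06% were at least 2-fold higher in replicate 2 and 2.11% in replicate 1. Of the 4 box H/ACA proteins, the pseudouridine synthase gene Dkc1 (3.48 and 1.22 TPM) and Nhp2 (7.08 and 6.09 TPM) had at least 20 counts in both. Gar1 had 15 and 21 counts and Nop10 4 and 18.

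The assembly factors were lower, with 6 of 11 listed and measured genes at 20 counts or more in both libraries and a median of 1.28 and 0.660 TPM. All 7 processing enzymes measured passed, led by the exonuclease gene Xrn2 at 26.9 and 14.1 TPM and the cap hypermethylase gene Tgs1, which acts on U3, at 12.2 and 7.85 TPM. The debranching enzyme gene Dbr1, which opens the intron lariats that hold snoRNAs, was at 1.40 and 0.890 TPM. None of the assembly and processing genes that passed reached 2-fold on centred CPM. Of all genes tested, 3.06% did so higher in replicate 2 and 2.11% in replicate 1.

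Long noncoding host genes of snoRNAs were measured for 17 symbols, 12 with at least 20 counts in both libraries. Gas5 was highest, at 47.5 and 32.9 TPM, followed by Zfas1 at 33.2 and 28.3 TPM, and no detected snoRNA had either of them as its host. Snhg1 was at 14.9 and 11.2 TPM and Snhg3, the host of the Snora73 pair, at 2.91 and 4.46 TPM. On centred CPM, Snhg8 was at least 2-fold higher in replicate 2 (a ratio of 1.55) and Snhg14 in replicate 1 (-1.25). The median ratio of the list was 0.46. For comparison, 3.06% of all genes tested were at least 2-fold higher in replicate 2 and 2.11% in replicate 1.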

How the data were processed

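The labels describe 2 libraries of 1 group. Per the file headers, expected counts and TPM in the deposited gene tables have the layout of RSEM, and a second deposited quantification of transcripts, with estimated counts and TPM, has that of kallisto. The authors' readme files name mm10 and annotation M21, and say that the former came from alignments to transcripts and the latter from reads. The sources used here name no program, version, trimming, strand setting or filter.

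Classes came from the transcript names of the table made from reads, whose values were summed per gene, and positions and hosts from GENCODE M21. CPM used gene rows only, and 0.504% and 0.0968% of expected counts in other rows were left out. Nothing was tested, as 1 group and 1 library on a side leave no replicate comparison. Ratios were centred on the median of 11058 genes, and the calculation was tested on simulated data. The libraries were not copies of each other, with a chi-square of 63.9 per degree of freedom over 22214 genes. Alternatives used TMM factors of edgeR 4.0.16 and size factors of DESeq2 1.42.0 on expected counts rounded to whole numbers, other count minimums and the estimated counts. Copies were found with BLAST+ 2.17.0, and values were computed with Python 3.11.15 and pandas 2.3.3.

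The members and lists were chosen with earlier results of these data known. Genes named were the highest Snord, Snora and other members by mean TPM, the largest and smallest ratios, those just inside and outside the minimum, members that share a host, and genes of the lists. Further snoRNA genes in the same hosts, near-identical copies and the highest genes of the table made from reads were named after their values were seen.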

Additional observations from a re-analysis of the deposited data

How the results depend on the processing

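No paired analysis was possible because there was 1 group. The number of detected genes, 17, was 6 with at least 50 counts in both libraries and 56 with the estimated counts, and it ranged from 21 to 35 when only 1 library had to pass. The share of TPM, 2.84%, became 4.08% over all snoRNA genes, 0.270% with the estimated counts and 0.900% without Gm22988 and Gm26447, the last chosen after seeing the data.

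The median log2 ratio of 3.04 was 2.93 without centring, 1.64 with the estimated counts, 1.78 on TPM, 1.91 at a minimum of 50 counts, 2.90 with no minimum and 2.08 for members without near-identical copies. Alternatives chosen after seeing the data gave 2.12 with U3 summed as 1 gene and 1.86 with centring on other short genes. The count of 16 members at least 2-fold higher in replicate 2 became 5 of 6 at 50 counts, 32 of 39 with no minimum, 8 of 8 without copies and 12 of 16 on TPM, and 1 gene was at least 2-fold higher in replicate 1 on TPM and 1 with no minimum. Fewer or more genes entered these counts, and no share of all genes past 2-fold is given for these alternatives. TMM and DESeq2 scaling gave 16 as well.

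Of the 16 members with a host by position, the 4 Rnu3b models in Tex14 included, 10 had a host that itself reached 20 counts in both. The median log2 of member over host, 1.14, was 5.65 on TPM and ranged from 0.20 to 3.16 between the single libraries. The Snora and Snord difference of -0.28 turned to 0.60 on CPM, 0.56 with the other quantification and 1.27 at 50 counts, and ranged from -1.26 to 0.57 between the single libraries. The cause of these shifts was not tested.

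Depth limits the members with 20 to 40 counts in replicate 1, and effective lengths near 0 limit every TPM of an RNA under 150 nt.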
